A study of Mus musculus with 12 samples.

Results

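Ret encodes a receptor tyrosine kinase and is 1 gene of the 43432 in the count table examined here. It was selected on its counts in these 12 libraries. In the order used for this choice, its fitted fall in IL-25+ cells of the small intestine was the 3rd largest. That order held only genes with a fall at an edgeR adjusted p below 0.05 and a minimum mean CPM. In each of them every IL-25+ library of the small intestine also lay below every IL-25- library. Shc2, with a fitted log2 difference of -10.345 in the same comparison, was not in that order. Since Ret was selected in this way, its own levels are given below as a description, with no test. Just inside and just outside the first 6 places of that order, the fitted log2 differences were -10.24 for Sphkap and -10.18 for Sorcs2, beside -10.66 for Ret. The table holds RNA-seq read counts from 12 libraries of sorted mouse epithelial cells, 3 in each of 4 groups. All mice carried Flare25, an IL-25 reporter allele whose red fluorescent protein marks cells that express the cytokine IL-25. Live, single EpCAM+ cells were sorted into an IL-25+ fraction, which is tuft cells by its markers, and an IL-25- fraction, which is the rest of the epithelium. The groups are IL-25+ and IL-25- cells of the gallbladder (GB-pos and GB-neg) and IL-25+ and IL-25- cells of the proximal small intestine (SI-pos and SI-neg). The gallbladder labels list HDM AF647 given 1 day before collection, the small intestine labels list none, and the treatment protocol of all 12 says homeostasis, so tissue and that label cannot be told apart. Age, sex and strain background, and whether libraries came from separate or pooled mice, are not given in the sources used here, so p-values measure the spread between these libraries, which may be technical.

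Ret works as the signalling component of a receptor complex. A ligand of the glial cell line-derived neurotrophic factor family (Gdnf, neurturin, artemin or persephin) binds a membrane-anchored co-receptor of the Gfra family, and the pair brings Ret molecules together, which phosphorylate each other and recruit adaptor proteins to the Ras-MAPK and PI3K pathways. Gdf15 acts on Ret in the brainstem through the co-receptor Gfral. In mice, Ret is best known for building the enteric nervous system and the kidney.

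Library totals ran from 23703449 to 64736650 counts. All 12 tuft identity genes listed (Pou2f3, Trpm5, Dclk1 and others) were higher in IL-25+ cells of both tissues by edgeR's quasi-likelihood test, which is the check of the sort (12.4% of all tested genes were called higher in GB-pos than in GB-neg and 14.5% in SI-pos than in SI-neg). Their summed level was 23582 to 25207 CPM in GB-pos and 46.7 to 175.7 CPM in GB-neg, and 33167 to 40283 CPM in SI-pos and 96.7 to 269 CPM in SI-neg. CPM is the read count scaled to library size with TMM factors. Mitochondrial genes took 7.13 to 8.83% of counts in GB-pos, 11.2 to 25% in GB-neg, 12.1 to 17.2% in SI-pos and 26.6 to 34.9% in SI-neg. A pair of libraries stood apart. The library GB-neg 1 held intestinal transcripts at 4.94% of the SI-neg level (median of 7 enterocyte genes), against 0.0630% in GB-neg 2 and 0.0616% in GB-neg 3. The library SI-neg 3 held gallbladder transcripts at 1.42% of the GB-neg level (median of 5 genes), against 0.285% in SI-neg 1 and 0.207% in SI-neg 2. Ret carried over at those shares would give 1.34 of the 92.2 CPM in GB-neg 1 and 1.16 of the 20.8 CPM in SI-neg 3.

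Ret (ENSMUSG00000030110) lies on the minus strand of chromosome 6 at 118151745 to 118197718 in GRCm38, with 6763 bp of exon in GENCODE M21. Its 2 annotated transcripts are Ret-201, with 20 exons and a coding sequence for 1115 amino acids, and Ret-202, with 19 exons and 1073 amino acids. Counts per gene do not separate them. No annotated gene overlaps Ret on either strand. The nearest, Csgalnact2, which makes chondroitin chains, lies 12604 bp away toward lower coordinates. Csgalnact2 averaged 4.05 ± 2.34 CPM in GB-pos, 7.87 ± 3.87 CPM in GB-neg, 2.19 ± 0.338 CPM in SI-pos and 2.31 ± 0.832 CPM in SI-neg (SD, n = 3 each), and was low in all 4 groups.

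Ret was read in both tissues, mostly in the epithelium outside the tuft fraction, and most of all in the gallbladder. The GB-pos libraries held 178, 234 and 148 Ret reads (5.17, 8.69 and 3.98 CPM). The GB-neg libraries held 6567, 3039 and 1982 reads (92.2, 89.8 and 64.4 CPM). Every gallbladder library had Ret reads, and the lowest GB-neg library lay well above the highest GB-pos library. The SI-pos libraries held 0, 0 and 1 read (0, 0 and 0.0405 CPM), where a count of 0 in a library allows up to 3 counts. The SI-neg libraries held 591, 1293 and 820 reads (17.5, 43.2 and 20.8 CPM). Intestinal tuft-fraction cells were thus at the limit of detection, and all SI-neg libraries lay between the 2 gallbladder fractions. In sorted bulk samples fewer cells with a transcript and less of it per cell cannot be told apart.

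**Figure D1:**
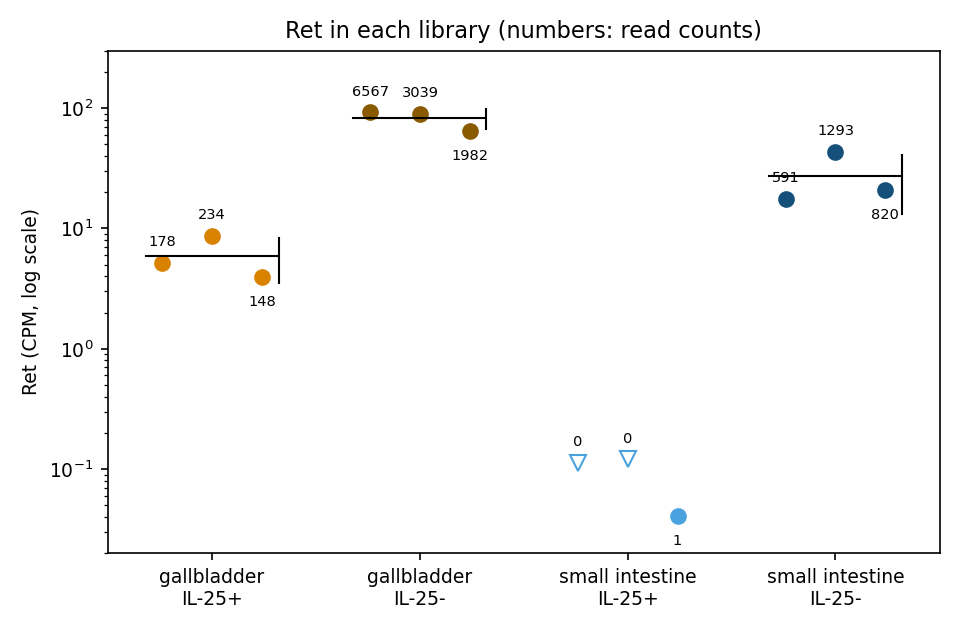
Ret level in each library on a log axis of CPM, with the read count beside each point, and lines for the group mean and SD (n = 3 each). Open triangles stand at the level of 3 counts for the 2 SI-pos libraries with 0 reads. The groups do not overlap: GB-pos 3.98 to 8.69, GB-neg 64.4 to 92.2, SI-pos 0 to 0.0405 and SI-neg 17.5 to 43.2 CPM. The separation of SI-pos from SI-neg was a condition of the choice of Ret.

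The order of the group means was GB-neg (82.1 ± 15.4 CPM), SI-neg (27.2 ± 13.9 CPM), GB-pos (5.95 ± 2.44 CPM) and SI-pos (0.0135 ± 0.0234 CPM; SD, n = 3 each). No neighbours in this order overlapped. The closest were the 2 IL-25- fractions, where the lowest GB-neg library was 1.49 times the highest SI-neg library. The lowest SI-neg library was 2.02 times the highest GB-pos library, and the lowest GB-pos library was 98.3 times the highest SI-pos library. Libraries varied least in GB-neg, with a coefficient of variation of 18.8%, against 51.3% in SI-neg, where replicate 2 was highest, and 41.1% in GB-pos.

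Between the gates, summed Ret counts per scaled library were 15.0-fold lower in GB-pos than in GB-neg (95% interval 13.8 to 16.4, counting error only). In the small intestine they were 1997-fold lower in SI-pos than in SI-neg, with a counting interval of 358 to 78896, since SI-pos held 1 read in all. Between the tissues, GB-neg was 3.25 times SI-neg (3.12 to 3.39) and GB-pos was 433 times SI-pos (77.3 to 17114). Intervals are exact binomial and say nothing of the spread between libraries. The fitted log2 differences behind these were -3.79 in gallbladder and -10.66 in small intestine for the gate, 1.60 for tissue in IL-25- cells and 8.47 for tissue in IL-25+ cells. Fold changes against a group with 1 read depend on the prior count and are descriptions only.

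Counts scaled by exon length (TPM) place Ret among the other genes of a library. Its mean TPM was 3.65 ± 1.39 in GB-pos, 39.2 ± 15.6 in GB-neg, 0.00488 ± 0.00845 in SI-pos and 8.33 ± 2.37 in SI-neg (SD, n = 3 each). In GB-pos, 39.5, 44.0 and 31.5% of detected genes were below it. In GB-neg, 87.3, 86.1 and 77.9% of detected genes were below Ret, and in SI-neg 55.6, 72.9 and 60.7%. Ret was therefore an above-median transcript in both IL-25- fractions and a below-median one in gallbladder tuft-fraction cells.

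In the gallbladder the co-receptors did not follow Ret. Where Ret was highest, in GB-neg, the 5 co-receptor genes were at or near 0 in 2 of the 3 libraries: GB-neg 3 held no read of any of them, and GB-neg 2 held 4 reads of Gfra2, the neurturin co-receptor. The remaining GB-neg co-receptor reads (34 of Gfra1, 50 of Gfra3 and 6 of Gfra4) were all in GB-neg 1, the library with intestinal transcripts, and their part in that was not tested. In GB-pos, Gfra1, the Gdnf co-receptor, had 12, 32 and 0 reads, Gfra4 had 0, 3 and 0, and Gfra2 and Gfra3 had none. Gfral had no read in any of the 12 libraries. Gfra2, Gfra4 and Gfral are shown although they fall outside the rule for named genes, as are the ligands other than Gdf15 below, to complete the family.

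Gfra3, the artemin co-receptor, had the most reads of the co-receptors, nearly all of them in SI-neg. It had 0, 0 and 0 reads in GB-pos and 50, 0 and 0 in GB-neg. SI-pos had 9, 3 and 0 reads and SI-neg had 314, 578 and 455. The SI-neg libraries lay above all others, at 13.4 ± 5.23 CPM against 0.153 ± 0.172 CPM in SI-pos (SD, n = 3 each). The fall in SI-pos had a log2 difference of -6.40 ± 1.77 (SE; edgeR adjusted p = 0.0204), and leaving out SI-pos 2, SI-pos 3 or SI-neg 2 ended the call (adjusted p over all alternatives 0.000581 to 0.0790). In IL-25- cells Gfra3 was lower in gallbladder than in small intestine (log2 difference -5.73 ± 1.69, SE; edgeR adjusted p = 0.0293). Leaving out SI-neg 1, SI-neg 2, SI-neg 3, GB-neg 2 or GB-neg 3 ended that call, with adjusted p up to 0.0831. Gfra1 had 0, 0 and 0 reads in SI-pos and 74, 33 and 24 in SI-neg. That is at least 32.2-fold lower in SI-pos, with the floor of 3 counts taken over the group (edgeR adjusted p = 0.0494), and the call was lost under 10 of 18 alternatives, with adjusted p up to 0.123.

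**Figure D2:**
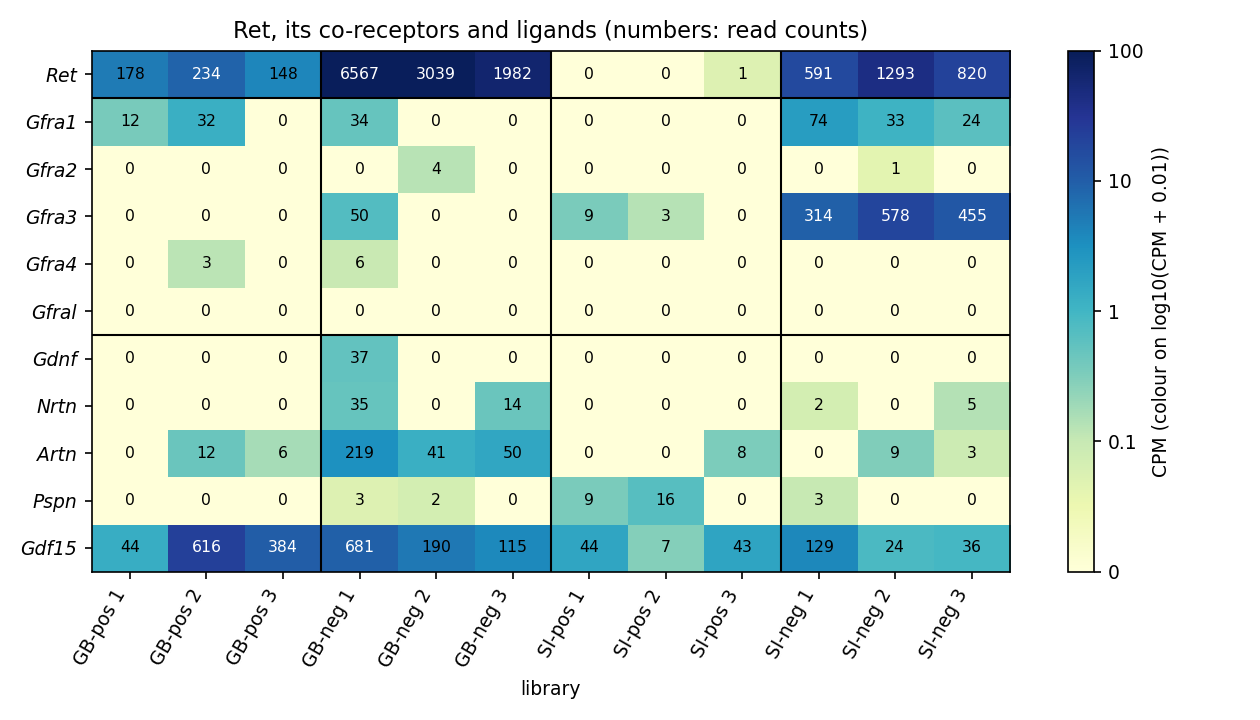
Read counts of Ret, 5 co-receptor genes and 5 ligand genes in each library (columns GB-pos, GB-neg, SI-pos and SI-neg, replicates 1 to 3), with colour for CPM on a log10(CPM + 0.01) scale. Ret had 6567, 3039 and 1982 reads in GB-neg, where the co-receptors had reads mainly in replicate 1, while Gfra3 had 314, 578 and 455 reads in SI-neg.

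Ligand transcripts were scarce. Gdnf was read in 1 library, GB-neg 1, with 37 reads. Artn (artemin), the ligand that pairs with Gfra3, had 0, 12 and 6 reads in GB-pos and 219, 41 and 50 in GB-neg. It had 0, 0 and 8 reads in SI-pos and 0, 9 and 3 in SI-neg. GB-neg was thus the one group in which every library held at least 41 Artn reads, and there Gfra3 was read in replicate 1 alone. Nrtn (neurturin) had 35, 0 and 14 reads in GB-neg, none in GB-pos or SI-pos, and 2, 0 and 5 in SI-neg. Pspn (persephin) had at most 16 reads in a library. Gdf15, a stress-responsive member of the wider TGF-beta family, was read in all libraries, at 11.5 ± 10.8 CPM in GB-pos, 6.30 ± 2.97 CPM in GB-neg, 1.23 ± 0.821 CPM in SI-pos and 1.85 ± 1.72 CPM in SI-neg (SD, n = 3 each). Of the 5 ligands, 2 passed the filter on low counts, and edgeR called neither between the gates in gallbladder or in small intestine. Neither had an unadjusted p below 0.05, and DESeq2 called none.

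Other receptors that bind these ligands or take part in their signalling were tested too. Itgb1, the beta-1 integrin chain, went opposite ways: it averaged 124 ± 7.16 CPM in GB-pos and 188 ± 40.1 CPM in GB-neg, and 254 ± 35.5 CPM in SI-pos and 161 ± 19.2 CPM in SI-neg (SD, n = 3 each). The log2 differences were -0.60 in gallbladder (edgeR adjusted p = 0.0319, not called under 7 of 19 alternatives, up to 0.138) and 0.66 in small intestine (edgeR adjusted p = 0.0211, not called without SI-pos 3 or SI-neg 2, up to 0.102). Ncam1, a cell adhesion molecule that also binds Gdnf, was named after its values were seen. It had 323, 133 and 0 reads in GB-pos and 109, 1 and 1 in GB-neg, and 1 read in all of the small intestine. Sdc3, a heparan sulphate proteoglycan that binds Gdnf, was also named after its values were seen, and had 14, 13 and 0 reads in GB-pos, 8, 21 and 30 in GB-neg, none in SI-pos and 0, 34 and 33 in SI-neg.

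Over the 7 lists of RET pathway genes (69 genes without Ret, of which 50 were tested), 6 were higher and 10 lower in GB-pos than in GB-neg, and 34 did not pass. That is 32% of those tested, where 26.8% of all 16636 tested genes were called in this comparison. In the small intestine 7 were higher and 11 lower in SI-pos than in SI-neg, and 32 did not pass, 36.0% of those tested, against 27.2% of all tested genes. The median log2 differences over the lists were -0.18 in gallbladder and -0.23 in small intestine, beside -0.15 and -0.07 over all tested genes. Between the tissues, gallbladder was higher for 12 and lower for 4 in IL-25- cells, where 24.6% of all tested genes were called, and higher for 13 and lower for 4 in IL-25+ cells, where 23.7% of all tested genes were called. The interaction of tissue and gate was called for 3 genes higher and 5 lower, 16% of those tested, against 9.23% of all tested genes (3.63% higher and 5.6% lower). The gate comparisons of both tissues compare different libraries, while the tissue comparisons reuse the same 12. All come from the same fit of the 12 libraries, with shared scaling, filter and spread estimates, so the gate comparisons are not independent.

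Among the adaptors and effectors (25 genes, 21 tested), 2 were higher and 2 lower in GB-pos than in GB-neg, and 3 were higher and 4 lower in SI-pos than in SI-neg. These are 19% and 33.3% of those tested, near the 26.8% and 27.2% of all tested genes. Pik3r1, the regulatory subunit of PI3-kinase, fell in both: it averaged 94.5 ± 9.66 CPM in GB-pos and 218 ± 86.6 CPM in GB-neg, and 44.2 ± 8.29 CPM in SI-pos and 102 ± 19.9 CPM in SI-neg (SD, n = 3 each). Its log2 differences were -1.20 ± 0.281 in gallbladder and -1.21 ± 0.282 in small intestine (SE; edgeR adjusted p = 0.0065 in each). Sos1, the Ras exchange factor, was higher in SI-pos by a log2 difference of 0.98 ± 0.248 (SE; edgeR adjusted p = 0.0105), a call lost without SI-pos 2 (0.0530). In gallbladder its difference was 0.45, which did not pass. Grb7, Stat3, Frs2 and Ptpn11, which dock on or act downstream of activated Ret, were all present, at means of 55.2 to 377 CPM per group, and none passed in either gate comparison, where Frs2 had the largest fall relative to its error, with a log2 difference of -0.50 in gallbladder (edgeR adjusted p = 0.0572).

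Shc2, an adaptor of the Shc family, was named after its values were seen, since its pattern was near that of Ret (Pearson r = 0.941 over the 12 libraries). It had 0.232, 9.39 and 0.835 CPM in GB-pos and 24.7, 29.5 and 13.8 CPM in GB-neg. It had no read in SI-pos and 1.22, 6.27 and 6.65 CPM in SI-neg. The groups of each tissue did not overlap. Since Shc2 was picked for this pattern, the p-values that follow are descriptions only. The fall was at least 121-fold in SI-pos (edgeR adjusted p = 0.00438, floor of 3 counts over the group), and the gallbladder log2 difference of -2.71 did not pass (edgeR adjusted p = 0.109).

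The attenuators, which end signalling by ubiquitination, dephosphorylation or feedback, were called at 8 of 12 tested genes in gallbladder (3 higher, 5 lower in GB-pos) and 7 of 12 in small intestine (3 higher, 4 lower in SI-pos). These are 66.7% and 58.3% of those tested, against 26.8% and 27.2% of all tested genes. Cblb, a ubiquitin ligase, rose in both tuft fractions: it averaged 296 ± 79.8 CPM in GB-pos and 44.3 ± 10.9 CPM in GB-neg, and 213 ± 41.9 CPM in SI-pos and 53.7 ± 12.6 CPM in SI-neg (SD, n = 3 each). Its log2 differences were 2.74 in gallbladder (edgeR adjusted p = 9.76e-06) and 1.99 in small intestine (edgeR adjusted p = 0.000115). Its relative Cbl, which is the better-known Ret ligase, averaged 63.2 ± 19.0 CPM in GB-pos and 58.4 ± 23.4 CPM in GB-neg, and 61.8 ± 16.3 CPM in SI-pos and 99.7 ± 21.5 CPM in SI-neg, and passed in neither comparison.

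Cd2ap, a scaffold that works with Cbl proteins in receptor internalisation, fell in both tuft fractions. It averaged 160 ± 37.3 CPM in GB-pos and 763 ± 196 CPM in GB-neg, and 101 ± 22.8 CPM in SI-pos and 252 ± 19.5 CPM in SI-neg (SD, n = 3 each). The log2 differences were -2.26 in gallbladder (edgeR adjusted p = 1.97e-05) and -1.31 in small intestine (edgeR adjusted p = 0.00113). Ptprj, a receptor-type phosphatase, rose in both, by log2 differences of 0.945 ± 0.199 in gallbladder (edgeR adjusted p = 0.00347) and 3.12 ± 0.215 in small intestine (edgeR adjusted p = 4.95e-07), and the difference between these effects also passed, at -2.17 ± 0.283 (SE; edgeR adjusted p = 0.000413). Nedd4, a ubiquitin ligase, had log2 differences of -0.79 in gallbladder (edgeR adjusted p = 0.0304, not called under 5 of 19 alternatives, up to 0.113) and -0.74 in small intestine (edgeR adjusted p = 0.0388, not called under 7 of 19, up to 0.145). Ptprf, another receptor-type phosphatase, passed in neither, at 343 ± 65.8 CPM in GB-pos and 252 ± 18.4 CPM in GB-neg, and 296 ± 21.2 CPM in SI-pos and 251 ± 17.5 CPM in SI-neg.

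Spry4, a feedback inhibitor of receptor tyrosine kinase signalling that is induced by the MAPK pathway, was named after its values were seen (Pearson r with Ret = 0.902). It had 0.987, 3.56 and 4.33 CPM in GB-pos and 65.9, 53.0 and 42.6 CPM in GB-neg. It had 1 read in SI-pos and 2.52, 0.768 and 3.38 CPM in SI-neg. GB-neg was the highest group, as for Ret, but GB-pos overlapped SI-neg, where Ret did not. Since Spry4 was named with its values known, the p-values that follow are descriptions only. The log2 difference was -4.18 ± 0.665 in gallbladder (SE; edgeR adjusted p = 0.000467). In SI-pos the ratio to SI-neg was 178-fold lower with a counting interval of 31.6 to 7058 (edgeR adjusted p = 0.000208), and in IL-25- cells gallbladder was higher by a log2 difference of 4.59 ± 0.678 (SE; edgeR adjusted p = 0.000349).

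Of the genes that respond to Ret signalling in mouse kidney (6 genes, 4 tested), Etv5, an ETS transcription factor, fell in both tuft fractions. It had 3.98, 4.79 and 2.29 CPM in GB-pos and 16.04, 34.1 and 12.2 CPM in GB-neg. It had 3.58, 1.20 and 1.58 CPM in SI-pos and 7.30, 15.8 and 10.4 CPM in SI-neg. The groups of each tissue did not overlap, and the log2 differences were -2.5 ± 0.587 in gallbladder (SE; edgeR adjusted p = 0.00682) and -2.39 ± 0.588 in small intestine (SE; edgeR adjusted p = 0.00908). Its relative Etv4 did not pass in either, at 0.792 ± 1.15 CPM in GB-pos and 0.389 ± 0.453 CPM in GB-neg, and 11.3 ± 2.51 CPM in SI-pos and 5.49 ± 0.608 CPM in SI-neg. Myb, a transcription factor, averaged 105 ± 4.37 CPM in GB-pos and 5.29 ± 5.57 CPM in GB-neg, and 39.2 ± 9.22 CPM in SI-pos and 99.3 ± 39.4 CPM in SI-neg. It rose in gallbladder by a log2 difference of 4.29 ± 0.773 (SE; edgeR adjusted p = 0.00191), while the small intestinal difference of -1.34 did not pass, and the 2 effects differed by 5.63 ± 1.02 (SE; edgeR adjusted p = 0.00589).

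Transcription factors placed upstream of Ret in other tissues were mostly scarce: of 12 listed, 6 were tested. Rara, the retinoic acid receptor alpha, averaged 65 ± 13.7 CPM in GB-pos and 108 ± 18.3 CPM in GB-neg, and 26.7 ± 7.08 CPM in SI-pos and 44.3 ± 10.3 CPM in SI-neg (SD, n = 3 each). Its gate differences did not pass (edgeR adjusted p = 0.0579 in gallbladder and 0.0560 in small intestine), and in IL-25- cells gallbladder was higher by a log2 difference of 1.28 ± 0.267 (SE; edgeR adjusted p = 0.00383). Esr1, the oestrogen receptor alpha, was at 0.0221 CPM in GB-pos and 2.22 ± 0.329 CPM in GB-neg, a ratio 110-fold lower in GB-pos with a counting interval of 30.2 to 914 (edgeR adjusted p = 0.0206, not called under 4 of 18 alternatives, up to 0.0636), and it had 0 reads in SI-neg. In small intestine edgeR called none of the 6, with 2 at an unadjusted p below 0.05, and DESeq2 called 2.

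Cell type markers in the same libraries were set beside Ret. The 30 enteroendocrine genes summed to 29.5 to 45.3 CPM in GB-pos, with 8 of the 30 at 0 (among them the defining factors Neurog3, Pax4 and Nkx2-2), and to 13.7 to 499.6 CPM in GB-neg, with none at 0. They summed to 214 to 549 CPM in SI-pos and 7892 to 17623 CPM in SI-neg, with none at 0. In SI-neg, per 1000 CPM of enteroendocrine transcripts there were 2.22, 2.45 and 2.29 CPM of Ret. Other lists moved with Ret over these 3 libraries too, with 1.56, 2.17 and 1.64 CPM of Ret per 1000 CPM of enterocyte genes, 304, 337 and 272 CPM per 1000 CPM of T cell and innate lymphoid genes and 182, 275 and 242 CPM per 1000 CPM of enteric neuron genes. The goblet genes gave 1.31, 0.723 and 4.71 CPM of Ret per 1000 CPM. In GB-neg the same ratio to enteroendocrine transcripts was 184, 5723 and 4686 CPM, since Ret stood at 89.8 and 64.4 CPM in GB-neg 2 and GB-neg 3, where those 30 genes summed to 15.7 and 13.7 CPM. Which cells of a fraction held Ret was not tested, since these are bulk libraries.

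**Figure D3:**
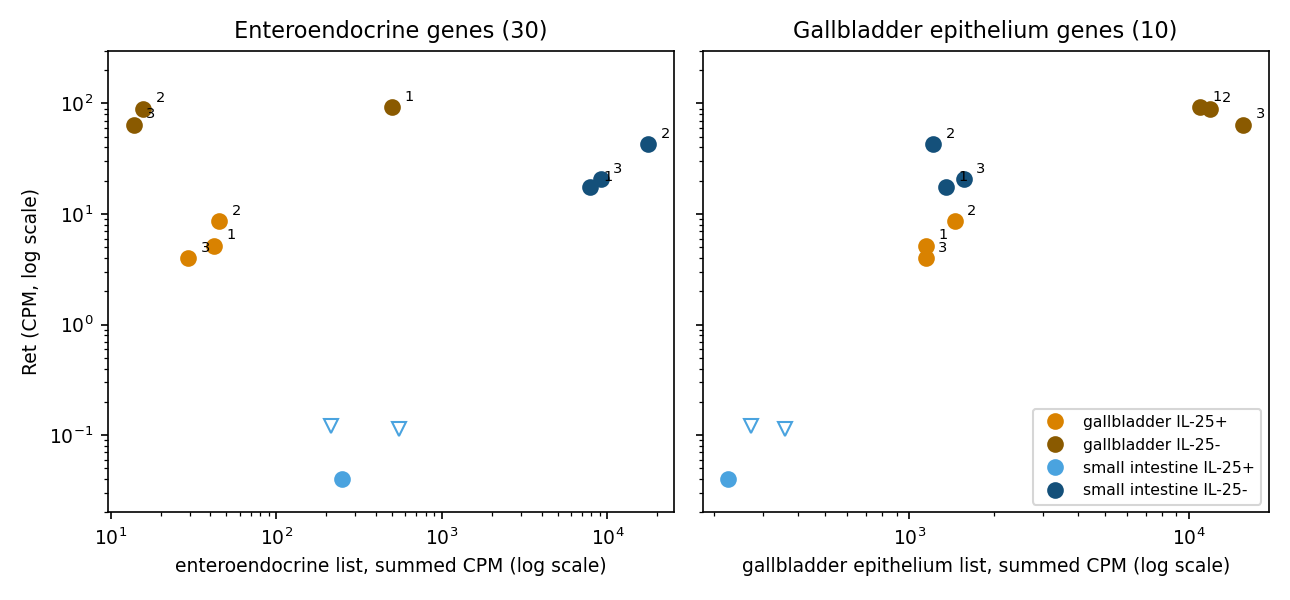
Ret in CPM against the summed CPM of 30 enteroendocrine genes (left) and of 10 gallbladder epithelium genes (right) in each library, on log axes, with replicate numbers beside the points and open triangles at the level of 3 counts for the 2 SI-pos libraries with 0 Ret reads. GB-neg replicates 2 and 3 combine 89.8 and 64.4 CPM of Ret with 15.7 and 13.7 CPM of enteroendocrine transcripts.

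The 10 gallbladder epithelium genes, among them Muc1, Slc4a4 and Krt19, summed to 1144 to 1454 CPM in GB-pos and 10961 to 15565 CPM in GB-neg, and to 225 to 358 CPM in SI-pos and 1215 to 1565 CPM in SI-neg, with none at 0 in any group. Slc4a4, a bicarbonate cotransporter, averaged 186 ± 18.3 CPM in GB-pos and 2477 ± 214 CPM in GB-neg (SD, n = 3 each). The GB-pos level of Ret was 7.24% of its GB-neg mean (6.30, 10.6 and 4.85% in the 3 libraries). The GB-pos levels of the 10 gallbladder genes were 7.52% (Slc4a4) to 39.3% (Sox17) of their GB-neg means, with a median of 9.82%, and the medians per library were 8.91, 13.8 and 8.55%. Ret thus sat just below the range of these genes, and both Ret and the median of the gallbladder genes were highest in GB-pos 2. The medians of the goblet, Paneth and stem lists were also highest in GB-pos 2, and those of the remaining lists in GB-pos 1 or GB-pos 3. Other lists, for genes with at least 10 CPM in GB-neg, had GB-pos medians on both sides of Ret. Among them were 6.11% for 5 enteroendocrine genes (1.96 to 8.13%), 5.53% for 9 enterocyte genes (3.59 to 270%) and 11.3% for 5 goblet genes (3.07 to 31.3%). The other lists, tuft identity apart, were above Ret too: Paneth 13.5%, myeloid 21.4%, enteric glia 43.8%, T cell and innate lymphoid 72.9% and stem 96.2%. The enteroendocrine sum in GB-neg came mostly from GB-neg 1. The part that RNA of IL-25- cells has in the GB-pos Ret reads was not tested.

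In SI-pos, Ret was set mainly beside lists of intestinal cell types. Ret stood at 0.0497% of its SI-neg mean, while the 23 enteroendocrine genes with at least 10 CPM in SI-neg stood at 0.0642% (Nts) to 111% (Cpe), with a median of 1.55% (2.37, 0.103 and 0.219% in the 3 libraries). The 10 enterocyte genes stood at a median of 30.4% of SI-neg, the goblet genes at 1.36% and the Paneth genes at 2.64%. The 7 gallbladder epithelium genes with at least 10 CPM in SI-neg stood at a median of 16.4%. By summed counts the share of Ret was 0.0501%, with a counting interval of 0.00127 to 0.279%, so its place against the lowest of those genes, and against the enteroendocrine median in SI-pos 2 and SI-pos 3, was not detectable at this depth. Of the 28 enteroendocrine genes tested, edgeR called 2 lower in GB-pos against GB-neg (Pcsk1 and Lmx1a), where 14.4% of all tested genes were lower. Without GB-neg 1, 4 were called higher and 1 lower. In SI-pos against SI-neg 19 were called lower, where 12.8% of all tested genes were lower, and 7 were called without SI-pos 3 and 12 without SI-pos 2.

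Markers of other cell types that could be in the sorts were summed likewise. The 12 enteric neuron genes summed to 184 to 236 CPM in GB-pos, 3.63 to 27.2 CPM in GB-neg, 14.6 to 25.6 CPM in SI-pos and 86.0 to 157 CPM in SI-neg. Of the defining neuronal genes, Vip was at 0 in every library. The GB-pos sum was mainly Nefl, a neurofilament gene, at 138, 90.6 and 155 CPM, and Syt1, a synaptic vesicle protein gene, at 71.8 ± 3.75 CPM, and the SI-neg sum was mainly Snap25, which endocrine cells also use for secretion, at 73.6, 138 and 58.9 CPM. The 7 enteric glia genes summed to 113 to 183 CPM in GB-pos, 217 to 269 CPM in GB-neg, 132 to 154 CPM in SI-pos and 212 to 326 CPM in SI-neg, most of it Erbb3, which epithelium expresses, and Foxd3 was at 0 in all groups but SI-neg. The 12 T cell and innate lymphoid genes summed to 1123 to 1295 CPM in GB-pos, 79.0 to 147 CPM in GB-neg, 1541 to 1920 CPM in SI-pos and 57.6 to 128 CPM in SI-neg, mostly through Ptprc and Kit, and Cd3e did not exceed 8.31 CPM in any library. The 8 myeloid genes summed to at most 38.2 CPM in GB-pos, 297.5 CPM in GB-neg, 30.4 CPM in SI-pos and 46.8 CPM in SI-neg, and the 9 stromal and endothelial genes to at most 10.9 CPM in any library.

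Ret was then set among the receptor tyrosine kinases. By mean TPM, Ret was 25th of 58 in GB-pos, 8th in GB-neg, 51st in SI-pos and 19th in SI-neg. In GB-neg its 39.2 TPM lay next to Mst1r (42.1 TPM) and Fgfr3 (38.7 TPM) and below Erbb3 (108 ± 19.8 TPM), Erbb2 (94.0 ± 40.4 TPM), Lmtk2 (77.2 ± 23.5 TPM) and Epha2 (73.6 ± 26.4 TPM). The neighbours Mst1r, Ret and Fgfr3 differed by less than the SD of Ret, 15.6 TPM. In SI-neg, Ret at 8.33 TPM lay between Fgfr2 (9.67 TPM) and Fgfr4 (7.52 TPM).

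Of the other 57 kinases 43 were tested, and 8 were higher, 17 lower and 18 not passing in GB-pos against GB-neg, where 12.4% of all tested genes were called higher and 14.4% lower. In SI-pos against SI-neg 5 were higher, 11 lower and 27 not passing, where 14.5% of all tested genes were called higher and 12.8% lower. The median log2 differences of the 43 were -0.81 in gallbladder and -0.48 in small intestine. There were 12 kinases called in both tissues: 7 lower in both tuft fractions, 3 higher in both, and 2 in opposite directions. The share of all tested genes called in both tissues is not given here, so these numbers cannot be read as particular to kinases. Egfr had the lowest fitted log2 difference of these 12 in small intestine, at -3.85. Ret was chosen on its own value there (-10.66), so the gap to Egfr follows from that choice and is a description only.

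**Figure D4:**
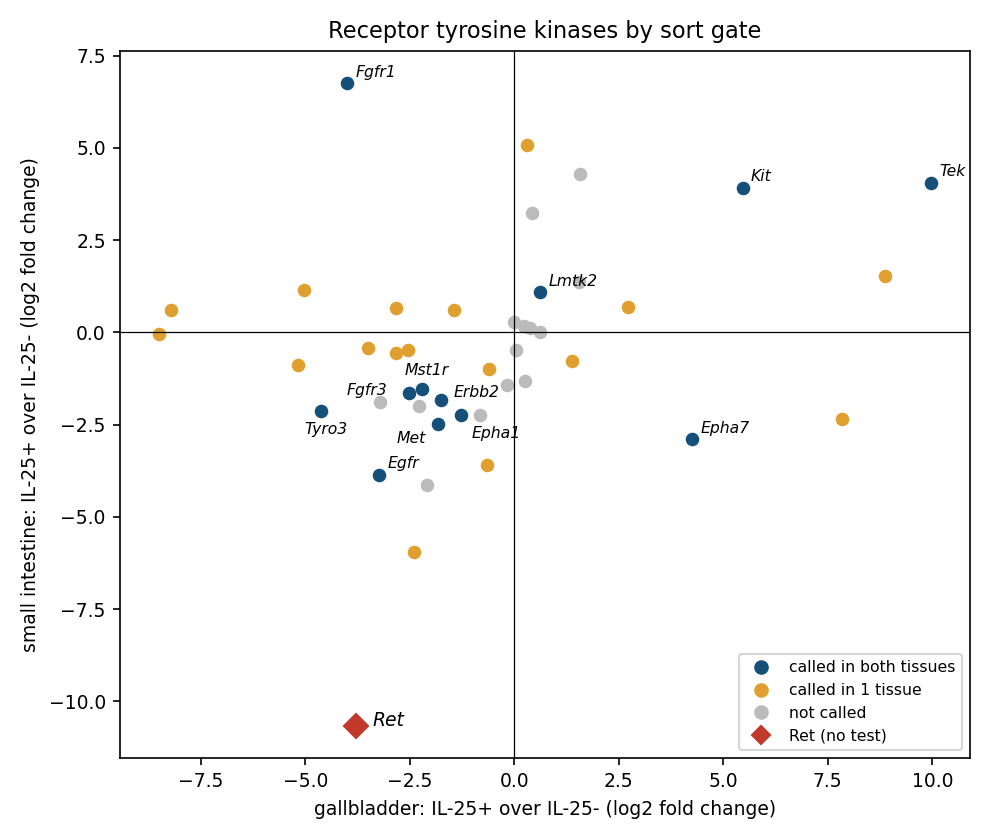
Fitted log2 fold change of IL-25+ over IL-25- cells for 43 receptor tyrosine kinases and Ret, with gallbladder on the horizontal and small intestine on the vertical axis. Points are coloured by whether edgeR called them in both tissues, in 1 or in neither, and Ret (diamond) is shown with no test. Ret lies at -3.79 and -10.66, and Kit and Tek lie in the opposite corner.

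The kinases lower in both tuft fractions were Egfr, Erbb2, Fgfr3, Met, Mst1r, Tyro3 and Epha1, receptors of epithelial growth factors among them. Met, the hepatocyte growth factor receptor, averaged 39.3 ± 9.54 CPM in GB-pos and 139 ± 8.23 CPM in GB-neg, and 12.1 ± 2.5 CPM in SI-pos and 67.9 ± 7.54 CPM in SI-neg (SD, n = 3 each). Its log2 differences were -1.83 ± 0.235 in gallbladder (SE; edgeR adjusted p = 9.29e-05) and -2.48 ± 0.242 in small intestine (SE; edgeR adjusted p = 8.78e-06). Egfr, the epidermal growth factor receptor, averaged 8.93 ± 0.863 CPM in GB-pos and 83.6 ± 6.34 CPM in GB-neg, and 4.38 ± 3.56 CPM in SI-pos and 63.5 ± 16.2 CPM in SI-neg. Epha1 in gallbladder (7 of 19 alternatives) and Tyro3 in small intestine (10 of 19) were not called under all alternatives, with adjusted p up to 0.126 and 0.112.

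The kinases higher in both tuft fractions were Kit, Tek and Lmtk2. Kit, the stem cell factor receptor, averaged 659 ± 92.7 CPM in GB-pos and 14.9 ± 9.63 CPM in GB-neg, and 604 ± 45.0 CPM in SI-pos and 39.9 ± 5.57 CPM in SI-neg (SD, n = 3 each). Tek, the angiopoietin receptor, averaged 307 ± 60.8 CPM in GB-pos and 0.248 ± 0.405 CPM in GB-neg, and 8.33 ± 2.39 CPM in SI-pos and 0.508 ± 0.397 CPM in SI-neg. Lmtk2 was higher by a log2 difference of 0.62 in gallbladder (edgeR adjusted p = 0.0157, not called without GB-pos 1 or GB-neg 2, up to 0.0729) and of 1.10 in small intestine (edgeR adjusted p = 0.000412). The opposite pair was Fgfr1 and Epha7. Among the other kinases with high TPM, Erbb3 passed in small intestine (log2 difference -0.99; edgeR adjusted p = 0.00774), Ephb4 and Epha2 passed in gallbladder (1.37 and -2.83; edgeR adjusted p = 0.00251 and 0.000568), and Mertk passed in neither. Of these, the difference between the tissues passed for Ephb4 and Epha2 and not for Erbb3 (edgeR adjusted p = 0.556).

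The genes whose pattern was most like that of Ret were taken as the 10 with the highest Pearson r over log2 CPM of the 12 libraries, among 16635 other tested genes. They were Bace2 (r = 0.977), Cyp2j9 (0.975), Atp2c2 (0.973), S100a6 (0.970), P2ry6 (0.968), Phldb2 (0.965), Kif13b (0.965), Myo5c (0.964), Met (0.962) and Zfp618 (0.960). The 12 points form 4 groups and share their libraries, so r mostly follows the 4 group levels, and it is given with no p. There were 132 genes with r above 0.9. With a prior count of 0.5 in place of 2, 7 of the 10 stayed in the list, and with Spearman's rank correlation 1 did.

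**Figure D5:**
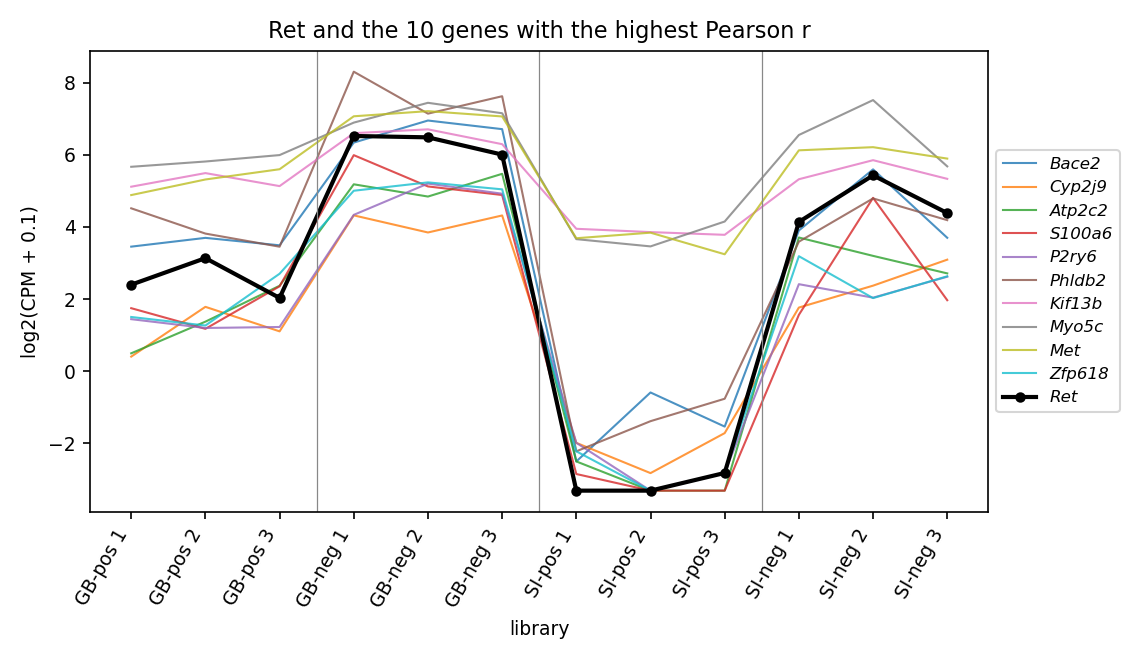
Levels of Ret (black) and the 10 genes with the highest Pearson r with it, as log2(CPM + 0.1), in each library from GB-pos 1 to SI-neg 3. All 11 lines are lowest in SI-pos, and Ret and most of the others are highest in GB-neg.

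Bace2, a membrane protease, had 10.9, 12.9 and 11.1 CPM in GB-pos and 81.1, 124 and 105 CPM in GB-neg. It had 0.0755, 0.562 and 0.243 CPM in SI-pos and 14.9, 48.4 and 12.9 CPM in SI-neg, where replicate 2 was highest, as for Ret. Atp2c2, a calcium and manganese pump of the secretory pathway, had 1.31, 2.49 and 5.06 CPM in GB-pos and 36.3, 28.7 and 44.4 CPM in GB-neg, and 0.0755, 0 and 0 CPM in SI-pos. S100a6, a calcium-binding protein, had 3.25, 2.15 and 5.01 CPM in GB-pos and 63.7, 34.8 and 29.5 CPM in GB-neg, and 2.85, 27.9 and 3.81 CPM in SI-neg, again with replicate 2 highest. Myo5c, an unconventional myosin of secretory vesicles, differed in that its highest library was SI-neg 2, at 184 CPM, above all 3 GB-neg libraries (119, 175 and 143 CPM). Among the fixed lists, the genes nearest to Ret were Met, Shc2, Aqp1 (r = 0.929), Mmp7 (r = 0.928) and Spry4.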

How the data were processed

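The deposited table holds whole-number read counts per Ensembl gene for 12 libraries of sorted mouse epithelial cells, with single-end 50 bp reads per the labels' protocols. Nextera XT libraries do not mark strand. Per the submitters' processing notes, STAR 2.7.2b, DESeq2 1.26 and GRCm38 were used; the read counter, strand setting and annotation release are not given in the sources used here. No label names another 11 columns, which were left out. Of 43432 gene IDs, 42548 matched GENCODE M21, and the other 884 held at most 0.119% of a library's counts.

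Libraries were grouped as labelled. Counts were scaled by TMM in edgeR 4.0.16 (R 4.3.3), filtered with filterByExpr at a minimum count of 10, and tested for 16636 genes in all 12 libraries with the robust quasi-likelihood test, with group as the only factor, and Benjamini-Hochberg adjustment over all tested genes. A gene is called at an adjusted p below 0.05. The test was checked on simulated counts. TPM used GENCODE M21 exon lengths. Ratio intervals are exact binomial at 95%, and both intervals and the floor of 3 counts cover counting error only, since reads carry no molecular identifiers. Each pair of replicates differed beyond sampling noise (chi-square over its degrees of freedom, 45.3 or more), so all 12 were kept.

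Ret, the gene lists and the comparisons were chosen with earlier results of these data known. Named genes are pathway genes at 5 CPM or more in a group or called between the gates (at most 6 a role, by mean CPM), the 8 receptor tyrosine kinases with the highest TPM and those called in both tissues, the 10 genes most like Ret, marker genes and neighbours of Ret. Alternatives were RLE scaling, DESeq2 1.42.0, no or a stricter filter, a replicate block, the compared groups alone, other library totals, and fits without single libraries or without SI-neg 3 and GB-neg 1 together. Some genes of the lists are not reported here.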

Additional observations from a re-analysis of the deposited data

Results flagged for a closer look

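For 9 named genes the effect of the gate (IL-25+ over IL-25-) differed between gallbladder and small intestine by the interaction term of the edgeR fit over all 12 libraries, which is given here as the gallbladder log2 difference minus the small intestinal one. Among the receptor tyrosine kinases, Epha7, an ephrin receptor, had an interaction of 7.15 ± 0.881 (SE; edgeR adjusted p = 0.00029), with 35.3 ± 7.54 CPM in GB-pos and 1.85 ± 0.293 CPM in GB-neg, and 0.382 ± 0.304 CPM in SI-pos and 2.86 ± 1.37 CPM in SI-neg (SD, n = 3 each). Fgfr1, a fibroblast growth factor receptor, had the opposite sign, at -10.77 ± 2.08 (SE; edgeR adjusted p = 0.00558), with 0.356 ± 0.323 CPM in GB-pos and 5.70 ± 3.25 CPM in GB-neg, and 4.32 ± 1.54 CPM in SI-pos and 0.0339 ± 0.0586 CPM in SI-neg. Its gallbladder difference alone was not called under 12 of 18 alternatives. Tek had an interaction of 5.91 ± 1.35 (SE; edgeR adjusted p = 0.0219), not called under 6 of 18 alternatives, up to 0.0825. Ephb4 had an interaction of 2.15 ± 0.389 (SE; edgeR adjusted p = 0.00384) and Epha2 one of -3.49 ± 0.624 (SE; edgeR adjusted p = 0.00356).

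Among the RET pathway genes, the interaction of Myb was 5.63 (edgeR adjusted p = 0.00589), that of Ptprj was -2.17 (edgeR adjusted p = 0.000413) and that of Itgb1 was -1.26 (edgeR adjusted p = 0.0102). The interaction of Esr1 was -10.07 (edgeR adjusted p = 0.0368), rests on 0 reads in SI-neg, and was not called under 12 of 17 alternatives, with adjusted p up to 1.00. Groups of 3 libraries are too small for single libraries to be singled out by their distance from the others.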

How the results depend on the processing

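Ret itself kept the order of its 4 groups under other scalings, without each library, and without SI-neg 3 and GB-neg 1 together. The GB-neg to SI-neg ratio of mean CPM ran from 2.54 (without that pair) to 4.28. The GB-pos to GB-neg ratio ran from 0.0557 to 0.0844. Its GB-neg mean was 101 CPM on library totals without mitochondrial genes, against 82.1 CPM. Of the named genes called between the gates, 18 of 24 in gallbladder and 19 of 25 in small intestine were called under every alternative, and none reversed. Of 37 results not called, 14 were called under 1 or more alternatives. RLE scaling shifted the median of all tested genes by -0.12 in the small intestinal gate comparison, 0.11 between tissues in IL-25+ cells and 0.16 in the interaction.

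Called RET pathway genes between tissues in IL-25+ cells numbered 17, and 10 to 21 without single libraries, lowest without SI-pos 2. Called enteroendocrine genes in SI-pos against SI-neg numbered 19, and 7 to 26 without single libraries (7 without SI-pos 3, 12 without SI-pos 2). In GB-pos against GB-neg they numbered 2, and 7 with DESeq2, 1 with no filter on low counts, 0 with the compared groups alone (edgeR, with 1 at an unadjusted p below 0.05), 4 without SI-neg 3 and GB-neg 1, and 1 to 5 without single libraries. Without GB-neg 1, the library with intestinal transcripts, 4 were higher in GB-pos (Cpe, Insm1, Pax6 and Sct) and 1 lower, so the direction of this count changed without that library.

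Genes that reversed were all uncalled. Grb7 in small intestine had a log2 difference of 0.05, and -0.074 under RLE scaling, -0.076 with DESeq2, -0.13 without SI-neg 3 and GB-neg 1, and -0.13 to 0.26 without single libraries. In gallbladder Grb7 was at -0.01 without SI-neg 3 and GB-neg 1, and -0.011 to 0.56 without single libraries. Ptpn11 in small intestine was at 0.007 without SI-neg 3 and GB-neg 1, and -0.41 to 0.02 without single libraries. Without single libraries, the small intestinal ranges were -5.17 to 1.38 for Artn, -0.13 to 0.12 for Frs2, -0.95 to 0.52 for Gdf15 and -0.43 to 0.027 for Stat3, and the gallbladder ranges were -0.19 to 0.34 for Cbl, -1.57 to 2.34 for Etv4, -0.13 to 1.39 for Gdf15 and -1.46 to 1.00 for Mertk. The cause of these changes was not tested.

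The labels do not say whether replicate numbers pair the samples. Deviations of same-numbered libraries correlated at 0.0256, -0.0021 and -0.0281 in small intestine and 0.0939, 0.0188 and 0.162 in gallbladder. Libraries of different numbers were not compared, so these values cannot decide it. With the replicate number as a block, 17 RET pathway genes were called in gallbladder and 16 in small intestine, against 16 and 18, and 1 enteroendocrine gene in gallbladder and 22 in small intestine. Mertk in gallbladder was at -0.11 with the block, against 0.26.

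Depth limits Ret in SI-pos, where 1 read leaves a wide interval, and the co-receptors and ligands, most of which were under the filter on low counts.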
